A study of Mus musculus with 965 samples.

Results

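Endothelial-like cells of mouse embryoid bodies (EBs) were described in single-cell RNA-seq of differentiating embryonic stem cells (ESCs). They were chosen by reads of 8 marker genes (Kdr, Flt1, Cdh5, Emcn, Tek, Tie1, Ramp2 and Ecscr), with at least 5 reads required in at least 3 of the 8. At days 6 and 8, 52 of 600 cells met this rule, which is 8.67% (95% exact binomial interval 6.54% to 11.2%), out of 965 cells in all. Of these, 35 came from 348 day 6 cells (10.1%) and 17 from 252 day 8 cells (6.75%). No cell of the 365 collected at day 3 met it (a count of 0 allows up to 0.822%), and no day 3 cell had more than 2 of the markers. Intervals and limits of this kind cover counting error only.

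EBs are aggregates that ESCs form in suspension once leukemia inhibitory factor is withdrawn, and in which cells of the germ layers appear. The cells were E14 ESCs, either wild type (WT) or homozygous knockouts of Dnmt3a (Dnmt3a -/-, 3AKO; clones 3A2 and 3A38) or Dnmt3b (Dnmt3b -/-, 3BKO; clones 3B126 and 3B77), all differentiated as EBs with no further treatment. Each cell was sorted into a well and sequenced full length by Smart-seq2, which amplifies the whole transcript of a cell without molecular identifiers. A plate held cells of 1 clone at 1 day, so plates are the samples compared here, 5 at day 6 (3A2, 3A38, WT, 3B126 and 3B77) and 5 at day 8 (3A38, 3B126, 3B77 and a pair of WT plates with 68 and 21 cells). EBs of a clone were pooled at each time point before sorting, so plates of different clones or days come from separate pools, and whether the pair of WT plates shared one is not stated. No clone had a second pool at the same day beyond that pair, so p-values measure only the spread between these plates, and each knockout plate represents a single clone. The batch given in the labels goes with the clones (batch 1 for 3AKO, 2 for WT and 3B126, 3 for 3B77), so batch cannot be told apart from 3AKO or from 3B77.

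Endothelial cells line blood vessels. In the embryo they arise from mesoderm that carries the VEGF receptor Kdr, under the transcription factor Etv2 and other ETS factors, and they share this origin with the first blood cells, with which they also share regulators such as Tal1, Lmo2 and Gata2. VEGF signals through Kdr and is bound by the decoy receptor Flt1, angiopoietins signal through Tek with the related receptor Tie1, Cdh5 forms the junctions between endothelial cells, and Ramp2 joins Calcrl to make the receptor for adrenomedullin. Emcn is a surface sialomucin of venous and capillary endothelium, and Ecscr is a surface protein of endothelial cells.

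Labels of day 8 libraries were in doubt before any comparison. E14 is a male line, and Y-linked transcripts (at least 3 reads) were found in 59 of 141 WT cells of days 3 and 6 (41.8%) but in 0 of 150 cells of 3B77. At these days they were also in 0 of 131 cells of 3B126, in 9 of 142 of 3A38 (6.34%) and in 55 of 149 of 3A2 (36.9%). Their absence therefore does not tell 3B77 from 3B126. At day 8 the library labelled 3B77 had them in 27.5% of its cells, while the library of 68 cells labelled WT had none (0%) and the library of 21 cells labelled WT had them in 14.3%. These 3 are therefore called the libraries labelled 3B77 and WT, and the gene calls, gene lists and cell measures that rest on them are also given over the day 6 plates alone. Endothelial-like cells had a median of 242975 reads (59803 to 1191810) and other cells 256299. By plate these medians were 561675 against 342747 in 3A2, 235129 against 278429 in 3A38 and 256598 against 194784 in WT at day 6. They were 156513 against 152478 in the library of 68 cells labelled WT and 256480 against 197818 in that labelled 3B77. On the day 6 plates with no endothelial-like cell the medians were 500240 in 3B126 and 312855 in 3B77. A threshold in raw reads is met more easily by deeper cells.

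The deleted genes were checked over all reads of each gene, and which exons the reads fall in is not known from gene counts. In the other cells Dnmt3a was at 1.37, 1.11 and 0.908 CPM (reads of the gene relative to all reads summed over the cells of a class on a plate) on the 3 plates of 3AKO, at 27.1, 21.7 and 103 on those labelled WT, and at 14.1 to 32.8 on the 4 labelled 3BKO. In endothelial-like cells it was not lower in 3AKO at day 6, at 14.02 CPM in 3A2 and 13.3 in 3A38 against 13.7 in WT. In 3A2 1 cell held 98.4% of these reads, whereas in 3A38 at least 5 reads were found in 6 of 14 endothelial-like cells and in 2 of 58 others. Y-linked transcripts were found in 2 of these 14 cells and in 1 of the 58 others, summing to 21.5 against 4.32 CPM. Whether every cell of the 3A38 day 6 plate is of that clone was not tested. Comparisons that use this plate as 3AKO carry that limit. Dnmt3b in the other cells was at 37.3 CPM in 3B126 and 13.4 in 3B77 at day 6 against 77.97 in WT and 55.9 and 10.99 in 3AKO, so its whole-gene level did not separate the genotypes.

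Promoters are printed for 3 of the markers and for Calcrl and Elk3, a pair of genes outside the rule that passed the test described further on, because ETS factors bind DNA with the core GGAA. Of the 8 markers, 5 had a promoter in the RefSeq table (GRCm38.p6, 250 bases before to 50 after the start). The letters AGGAAG or, on the other strand, CTTCCT, are in capitals.
Flt1, chr5:147725962-147726261, minus strand: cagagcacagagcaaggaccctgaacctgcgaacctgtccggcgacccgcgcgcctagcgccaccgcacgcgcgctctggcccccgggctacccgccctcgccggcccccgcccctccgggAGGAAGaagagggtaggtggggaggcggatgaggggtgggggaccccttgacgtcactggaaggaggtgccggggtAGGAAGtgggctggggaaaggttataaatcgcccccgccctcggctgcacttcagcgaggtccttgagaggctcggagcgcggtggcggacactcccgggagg
Emcn, chr3:137340828-137341127, plus strand: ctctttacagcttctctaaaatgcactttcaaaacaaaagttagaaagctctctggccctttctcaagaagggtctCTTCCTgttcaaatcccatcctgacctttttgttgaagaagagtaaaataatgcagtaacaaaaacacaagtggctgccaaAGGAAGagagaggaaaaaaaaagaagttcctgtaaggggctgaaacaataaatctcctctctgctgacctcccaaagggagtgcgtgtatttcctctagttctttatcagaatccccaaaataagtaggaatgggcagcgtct
Tie1, chr4:118489800-118490099, minus strand: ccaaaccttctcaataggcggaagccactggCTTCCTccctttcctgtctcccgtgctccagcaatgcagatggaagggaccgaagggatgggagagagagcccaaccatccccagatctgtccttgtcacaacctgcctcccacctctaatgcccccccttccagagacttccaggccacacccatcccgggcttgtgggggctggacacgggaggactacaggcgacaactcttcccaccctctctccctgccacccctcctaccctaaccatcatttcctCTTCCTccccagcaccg
Calcrl, chr2:84425217-84425516, minus strand: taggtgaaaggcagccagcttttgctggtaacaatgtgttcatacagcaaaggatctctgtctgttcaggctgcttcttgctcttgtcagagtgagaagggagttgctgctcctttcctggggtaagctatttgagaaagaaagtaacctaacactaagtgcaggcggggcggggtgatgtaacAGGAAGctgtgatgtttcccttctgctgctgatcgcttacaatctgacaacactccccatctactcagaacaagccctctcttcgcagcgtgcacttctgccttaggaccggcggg
Elk3, chr10:93311110-93311409, minus strand: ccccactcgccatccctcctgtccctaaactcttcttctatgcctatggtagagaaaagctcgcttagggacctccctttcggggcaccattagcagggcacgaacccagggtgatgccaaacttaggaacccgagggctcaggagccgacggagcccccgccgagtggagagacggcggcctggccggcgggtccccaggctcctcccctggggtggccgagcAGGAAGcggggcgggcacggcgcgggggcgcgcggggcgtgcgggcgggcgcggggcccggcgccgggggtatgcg
Flt1, Emcn and Tie1 each held 2 matches, Calcrl and Elk3 1 each, and the promoters of Kdr and Tek held none. Of all 27025 genes with a promoter in the table, 38.4% held a match in at least 1, as did 3 of the 5 markers, 6 of 11 other genes that rose and 0 of 4 that fell. A match to 6 letters is common at this length and describes the sequence only.

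Endothelial-like cells were found on 8 of 10 plates, and their share ranged from 0% to 19.4%. At day 6 they made up 9 of 80 cells of 3A2 (11.2%, exact interval 5.28% to 20.3%), 14 of 72 of 3A38 (19.4%, 11.1% to 30.5%) and 12 of 67 of WT (17.9%, 9.61% to 29.2%). Neither 3BKO clone had any at day 6, 0 of 58 cells of 3B126 and 0 of 71 of 3B77, which together allow up to 2.33%. The 3BKO plates and the other day 6 plates did not overlap. The mean share was 16.2% ± 4.36 (SD, n = 3) on the plates of 3AKO and WT and 0% on the 3BKO plates (n = 2), which were lower by 16.2 points (exact permutation test over plates, two-sided, p = 0.1, the smallest p that 2 plates against 3 allow). Within batch 2, which holds 1 plate of each, the shares were 17.9% in WT and 0% in 3B126. With at least 2 markers required the 3BKO plates stayed at 0% against 21.5% (exact permutation p = 0.2). With every cell thinned to 50000 reads and at least 1 read required per marker, they were at 0% against 17.1% (exact permutation p = 0.1). The share is of sorted and sequenced cells, and fewer EB cells of the type cannot be told apart from fewer recovered ones.

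At day 8 the share was 1 of 72 cells in 3A38 (1.39%) and 1 of 51 in 3B126 (1.96%). It was 6 of 40 in the library labelled 3B77 (15%), and 8 of 68 (11.8%) and 1 of 21 (4.76%) in those labelled WT. The 3A38 clone therefore had 14 of 72 cells at day 6 and 1 of 72 at day 8, each on 1 plate. None of the 8 cells with an NPM suffix in their name, 4 each in 3B126 and in the smaller WT library, was endothelial-like.

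**Figure D1:**
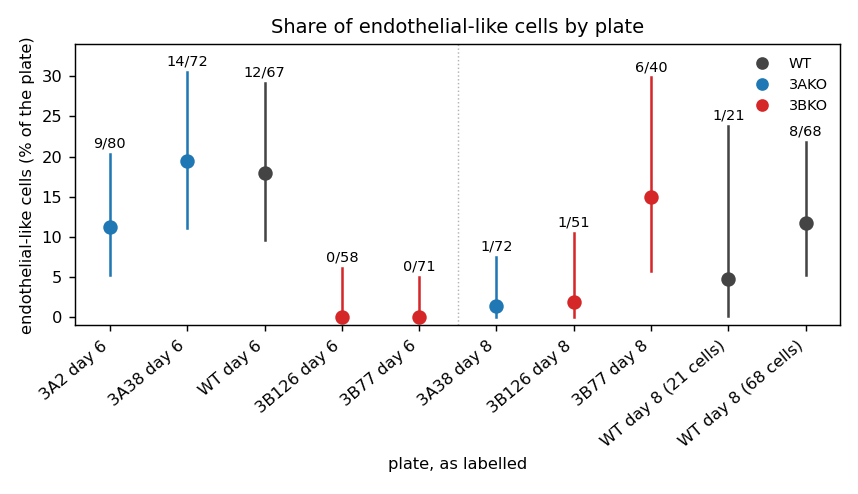
Share of endothelial-like cells (y axis, % of the cells of a plate) on each plate as labelled (x axis), with exact 95% binomial intervals as lines and the number of endothelial-like cells over all cells above them; colours give the genotype and the dotted line parts day 6 from day 8. Both 3BKO plates of day 6 sit at 0%, and the other day 6 plates between 11.2% and 19.4%.

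The 8 markers chose the cells, so their values are a description. Among the 52 cells, Kdr had at least 5 reads in 48, Ramp2 in 46, Ecscr in 43, Tek in 36, Flt1 in 35, Cdh5 in 31, Emcn in 17 and Tie1 in 15. Among the 548 other cells the numbers were 43 for Kdr, 57 for Ramp2, 24 for Ecscr, 15 for Tek, 17 for Flt1, 2 for Cdh5, 0 for Emcn and 2 for Tie1. Kdr and Ramp2 were thus also read in cells outside the rule, whereas reads of Emcn, Cdh5 and Tie1 lay almost wholly within it.

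Marker levels differed between plates. They are given as CPM of the endothelial-like cells of a plate, in the order 3A2, 3A38 and WT at day 6, then the libraries labelled WT (68 cells) and 3B77 at day 8, the 5 plates with at least 5 such cells (49 of the 52). Kdr was at 85.2, 467, 263, 223 and 269 CPM, lowest in 3A2. Cdh5 was at 18.4, 199, 171, 133 and 98.7 CPM, again lowest in 3A2.
Emcn had a wide range, at 41.6, 1239, 12.97, 22.7 and 1021 CPM. The levels in 3A38 and in the library labelled 3B77 were far above the rest, and there single cells held 64.7% and 67.9% of its reads. Tie1 was at 0.689, 90.3, 9.06, 11.3 and 15.2 CPM, and no cell of 3A2 had 5 reads of it, against 8 of 14 cells of 3A38. Ramp2 was at 75.1, 534, 165, 397 and 725 CPM, and it had at least 5 reads in all 9 cells of 3A2, all 8 of the library labelled WT and all 6 of the one labelled 3B77.

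The threshold cut a continuous range. Of the 600 cells, 412 had none of the 8 markers, 112 had 1 and 24 had 2, and these stayed outside. Inside it, 16 cells had 3, 4 had 4, and 32 had 5 or more, of which 6 had all 8. A stricter minimum of 4 markers left 36 cells and a looser one of 2 gave 76. Dropping Emcn from the rule left all 52, and dropping Kdr or Ramp2 left 40 and 41. Of the 6 cells with all 8 markers, 5 were on the 3A38 day 6 plate and 1 on the WT day 6 plate.

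Endothelial genes that the rule did not use followed the number of markers. Counted were 40 such genes, 16 transcription factors and 24 surface or signalling genes, with at least 5 reads in a cell. The median was 1 gene (0 to 7) in the 412 cells with no marker, 1 (0 to 15) with 1 marker, and 2 (0 to 10) in the 24 cells with 2, just outside the rule. It was 7 (0 to 14) in the 20 cells with 3 or 4 markers, just inside it, and 18 (1 to 30) in the 32 cells with 5 to 8. The median read totals of these 5 sets were 246274, 281668, 279234, 199478 and 295350, so the cells just inside the rule were the shallowest. The ranges overlapped on either side of the threshold, and 1 endothelial-like cell of 3A38 had none of the 40 genes.
By plate the median was 11 genes in 3A2, 20.5 in 3A38, 8.5 in WT at day 6, 14 in the library of 68 cells labelled WT and 12 in that labelled 3B77, against 1 or 2 in the other cells of the same plates. The single cells of 3A38, 3B126 and the smaller WT library at day 8 had 1, 10 and 18.

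**Figure D2:**
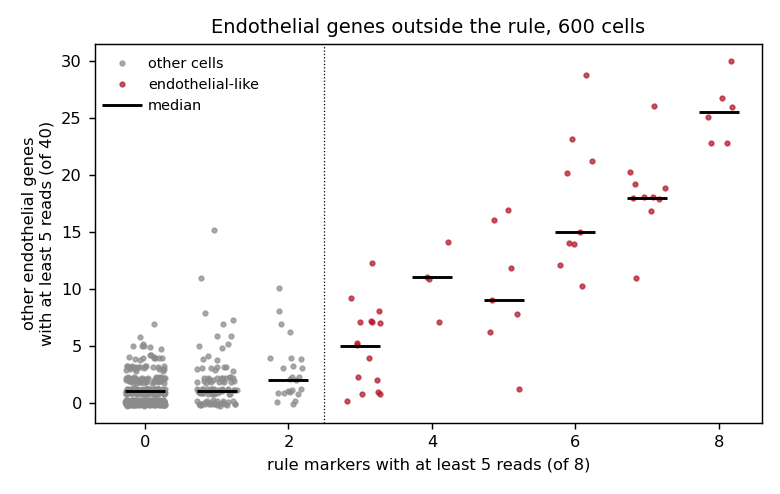
Number of 40 endothelial genes outside the rule with at least 5 reads (y axis) against the number of the 8 rule markers with at least 5 reads (x axis), 1 point per cell (600 cells, shifted slightly at random), with the median at each x as a bar; the dotted line is the threshold of the rule. Medians were 1 gene for 0 or 1 marker and 2 genes for 2 markers, and the bar for the 6 cells with all 8 markers lies highest.

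Markers of other cell types were checked with the same kind of rule (at least 5 reads in at least 3 of 8 markers). Of the 52 cells, 44 met none of 6 other sets. Blood markers were met by 2 (30 of the others), mesenchyme markers by 5 (58 of the others), epiblast markers by 1 (179 of the others), and neural, mural and visceral endoderm markers by 0 (145, 15 and 4 of the others); a count of 0 of 52 allows up to 5.77%. The 8 exceptions lay on the plates of 3A38 (4 at day 6 and 1 at day 8), WT at day 6 (1) and the library labelled 3B77 (2). With the endothelial genes outside the rule, this fitted the label endothelial-like for most but not all of the cells. The gene lists were chosen with earlier results of these data known, so this match is a description and no independent test.

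Genes outside the rule were then compared between endothelial-like and other cells, with reads summed per plate over the 49 and 278 cells of the 5 plates, plate as a block and edgeR's quasi-likelihood test with Benjamini-Hochberg adjustment over 14321 genes. Beside the markers, 15 genes rose (0.105% of 14313 tested) and 7 fell (0.0489%). A filter on low counts came first, and reads of 1 class alone were enough to pass it. Cd93, Erg, Klhl4 and Ptprb had 3, 7, 12 and 13 reads in other cells and could enter the test only as rises. Nanog and Fbxo15, with 3 and 4 reads in endothelial-like cells, could enter only as falls. The sign of such genes is a description, and their p-values carry this limit. Higher in all 5 plates were 2.91% of these genes and lower in all 5 were 9.03%, at an unadjusted p under 0.05 were 2.83% higher and 9.19% lower, and the median gene had a log2 fold change of -0.40 (-0.26 with DESeq2), so rises are larger and falls smaller relative to that median. DESeq2 on the same sums called 302 genes higher and 376 lower, markers included, against 21 and 7 with edgeR.
The calls depended on which plates were entered. With all 5 plates 28 genes were called, markers included. Without 3A2 it was 11 genes (9 of them among the 28), without WT at day 6 it was 16 (13 among the 28), and without the library labelled 3B77 it was 53 (26 among the 28). Without 3A38 at day 6 only Calcrl and Dppa5a were called, and without the library of 68 cells labelled WT only Emcn, Calcrl, Dppa5a and Hbb-bh0. With the day 6 plates alone, 1 gene was called, the marker Emcn. The 12 named rises then had log2 fold changes from 3.33 (Ets2) to 10.51 (Klhl4), with adjusted p of 0.0828 to 0.279, and the 5 named falls from -13.55 (Fbxo15) to -5.19 (Crabp1), with adjusted p of 0.0828 to 0.204, all in the same direction.

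Transcription factors of the endothelial programme were higher in endothelial-like cells. All 16 of the list were tested and had positive log2 fold changes, with a median of 3.05, and only Klf2 changed sign in other settings (-0.37 to 2.03). Of these 3 rose past the test (Sox7, Erg and Elk3), 11 by DESeq2, and 8 were higher in all 5 plates. Since genes such as Erg could enter the test only as rises, the count of positive signs is a description. Sox7, a SoxF factor of early endothelium, was at 68.7, 76.8, 84.2, 77.97 and 31.02 CPM in the plate order above and at 0.3995, 0.247, 0.858, 0 and 0 in the other cells. No plate overlapped between the classes, and only the library labelled 3B77 lay below the rest. Its log2 fold change was 8.16 ± 0.90 (SE; adjusted p = 0.0113), and 28 endothelial-like against 3 other cells had at least 5 reads.
Erg, an ETS factor that maintains endothelial identity, was at 4.60, 45.8, 2.69, 23.3 and 16.4 CPM against at most 0.247 in other cells (log2 fold change 8.15 ± 1.11, adjusted p = 0.0272). It was highest in 3A38 and low in 3A2 and WT at day 6. Elk3, an ETS factor of vessel development, was at 21.1, 175, 54.3, 51.98 and 123 CPM against 1.03, 9.63, 3.43, 4.66 and 15.1 (3.81 ± 0.47, adjusted p = 0.0199).

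Several factors that endothelium shares with blood did not pass. Etv2, the factor that sets the endothelial and blood fate, was at 8.04, 72.3, 36.96, 60.6 and 0 CPM, with 2.53, 79.4, 5.45, 10.4 and 0 in other cells (log2 fold change 1.77 ± 0.74, adjusted p = 0.396). In 3A38 it was as high in other cells, 15 of which met the blood rule, and in the library labelled 3B77 it was 0 in both classes. Tal1, a bHLH factor of blood and endothelial precursors, was at 208, 186, 153, 382 and 8.46 CPM against 42.1, 213, 16.6, 7.77 and 29.99 (1.89 ± 1.08, adjusted p = 0.539). It had at least 5 reads in 39 of the 52 cells, but in 1 of 6 in the library labelled 3B77. Gata2, which blood precursors also use, was at 41.1, 29.4, 21.3, 19.99 and 0 CPM, and again the library labelled 3B77 stood apart.
Fli1, an ETS factor of both lineages, was higher in all 5 plates, at 85.9, 86.4, 73.2, 49.98 and 58.1 CPM against 0.0333, 13.7, 1.72, 1.36 and 13.9, but its adjusted p was 0.226 (log2 fold change 4.72 ± 1.22; 1.68e-05 by DESeq2). Sox18, a second SoxF factor, was at 3.22, 55.5, 12.5, 16.7 and 3.38 CPM against 0, 4.53, 0, 0.0972 and 0 (6.94 ± 1.36, adjusted p = 0.1102). Hhex, a homeobox factor of early endothelium, was at 56.3, 51.8, 82.002, 50.6 and 11.3 CPM against 3.06, 14.8, 3.61, 9.52 and 5.47 (2.80 ± 0.72, adjusted p = 0.226).

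Genes of the endothelial surface and its signalling were higher as well. Of 24, 23 passed the filter on low counts (Stab2 did not), and all 23 had positive log2 fold changes (median 5.82), of which only Tmem100 changed sign in other settings (-1.45 to 2.56). Past the test were 5, by DESeq2 18, and 16 were higher in all 5 plates. Genes such as Cd93 and Ptprb could enter the test only as rises, so here too the count of positive signs is a description. Cd93, a receptor of the endothelial surface, was at 5.05, 242, 23.99, 37.3 and 192 CPM. Only 3 of its reads were in other cells of these plates, which gives a ratio of 3022 with a counting interval of 1032 to 14667 (edgeR adjusted p = 0.00591). Egfl7, a secreted factor of endothelial cells, was at 59.97, 422, 214, 361 and 151 CPM against 5.66, 24.6, 12.5, 10.8 and 18.5 (log2 fold change 3.94 ± 0.41, adjusted p = 0.00975). It had at least 5 reads in 44 endothelial-like cells and in 114 others, more of both than the other 4.
Ptprb, the phosphatase that acts on Tek, was at 12.9, 31.5, 12.2, 51.3 and 16.4 CPM against at most 0.680 (7.63 ± 1.09, adjusted p = 0.0341). S1pr1, the receptor for sphingosine-1-phosphate, was at 19.1, 17.8, 26.9, 5.998 and 46.8 CPM against at most 0.533 (6.81 ± 1.04, adjusted p = 0.0499), and in the library labelled WT its reads came from 1 cell. She, an adaptor protein, was at 23.9, 61.3, 42.8, 29.99 and 32.1 CPM against at most 1.32 (6.35 ± 0.96, adjusted p = 0.0499). S1pr1 and She were not called in any fit that left out a plate. Erg, Ptprb, Elk3, Thsd1 and Ets2 were called in 1 such fit each, Sox7 and Klhl4 in 2, and Cd93 and Egfl7 in 3.

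Pecam1, Icam2 and Cldn5, adhesion and junction genes of endothelium, were higher in all 5 plates without passing. Pecam1 was at 14.9, 60.3, 8.08, 53.98 and 29.9 CPM against 2.90, 2.84, 2.02, 2.53 and 0.249 (log2 fold change 3.89 ± 0.89, adjusted p = 0.191). Icam2 was at 8.50, 77.5, 57.5, 77.3 and 118 CPM against at most 0.666 (8.14 ± 1.45, adjusted p = 0.0778). Cldn5, a tight-junction claudin of endothelium, was at 8.27, 302.8, 94.98, 7.33 and 4.51 CPM, and 1 cell held 80.4% of its reads in WT at day 6 (adjusted p = 0.293). All 3 were called by DESeq2 (adjusted p = 5.24e-06 for Pecam1, 5.44e-14 for Icam2 and 3.61e-05 for Cldn5). Vwf, a clotting factor of mature endothelium, had at least 5 reads in 3 of the 52 cells and Nos3, the nitric oxide synthase of endothelium, in 4.

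**Figure D3:**
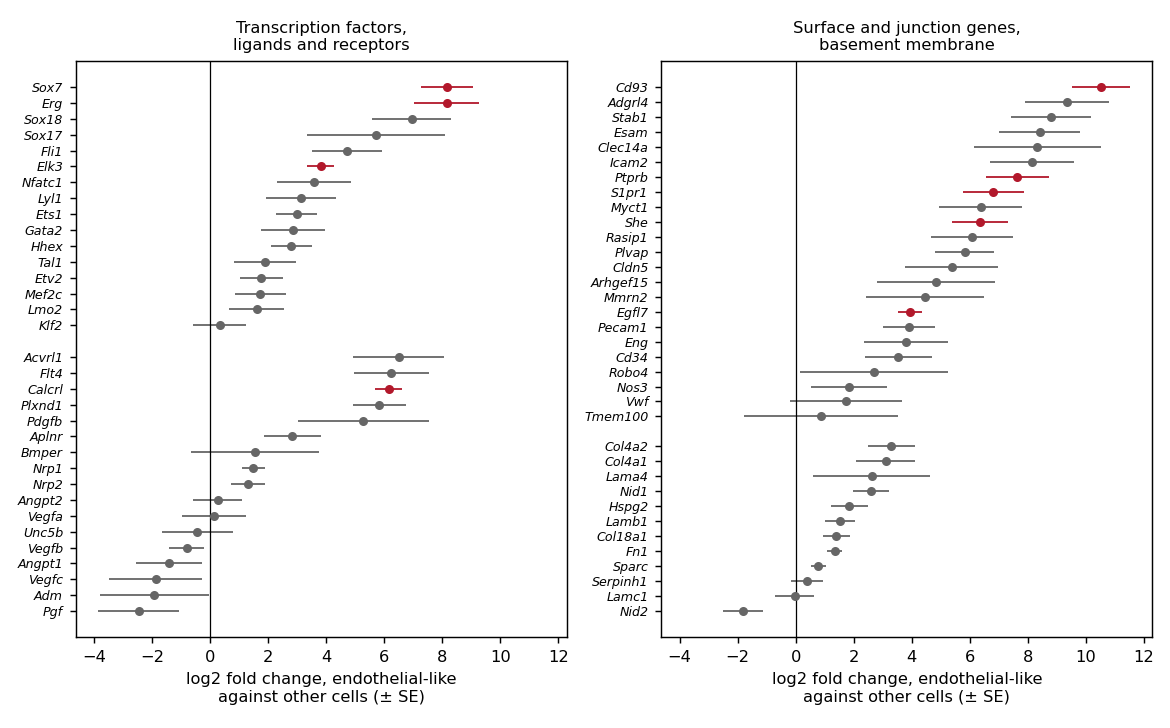
Log2 fold change of endothelial-like against other cells with its SE (x axis) for list genes that passed the filter on low counts (y axis), from edgeR over 5 plates; red marks adjusted p under 0.05. Left, 16 transcription factors above 17 vessel ligands and receptors; right, 23 surface genes above 12 basement membrane genes. All points of the transcription factors and surface genes lie right of 0 (Klf2 and Tmem100 did not in every other setting), and 9 genes in all are red.

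Of the vessel ligands and receptors, 17 of 18 were tested and 1 rose (6 by DESeq2), Calcrl, the partner of the marker Ramp2 in the adrenomedullin receptor. Calcrl was at 157, 269.8, 112, 154 and 165 CPM against 0.832, 3.46, 2.21, 3.79 and 2.61, with no overlap. Its log2 fold change was 6.15 ± 0.48 (adjusted p = 0.00157), it was called in each of the 5 fits that left out a plate, and 34 of 52 against 19 of 548 cells had at least 5 reads. Of the other receptors, Flt4, Plxnd1, Aplnr, Nrp1 and Acvrl1 were higher in all 5 plates without passing, whereas Unc5b was at -0.44 ± 1.23 and changed sign in other settings. Flt4, the receptor for Vegfc, had a log2 fold change of 6.24 ± 1.29 (adjusted p = 0.134), Plxnd1, a semaphorin receptor, 5.83 ± 0.92 (adjusted p = 0.0570), and Aplnr, the apelin receptor, 2.83 ± 0.98 (adjusted p = 0.340). The ligands Vegfa, Vegfb, Vegfc, Pgf, Angpt1, Angpt2 and Adm had log2 fold changes between -2.47 (Pgf) and 0.25 (Angpt2) with adjusted p of 0.536 or more, and those of Vegfa, Angpt1 and Angpt2 changed sign in other settings. The ligand Pdgfb was higher on 4 of 5 plates (5.28 ± 2.25, adjusted p = 0.396). Apln, the ligand of Aplnr, had no reads in the 52 cells.

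Markers of arterial, venous and lymphatic identity did not pass edgeR's test. Of 12 Notch and arterial genes 11 were tested and 0 called (9 higher, median log2 fold change 0.85; 1 higher at an unadjusted p under 0.05, against 2.83% of all genes, and 1 by DESeq2). Of 8 venous and lymphatic genes 5 were tested and 0 called (3 higher, median 1.05; 1 at an unadjusted p under 0.05, and by DESeq2 1 higher and 1 lower). Gja4, a gap junction protein of arterial endothelium, was at 5.97, 25.5, 6.12, 93.96 and 54.1 CPM against 0, 3.50, 0.0613, 0 and 0 (7.87 ± 1.62, adjusted p = 0.133). Dll4, a Notch ligand of arterial endothelium, had at least 5 reads in 1 cell, and so had Lyve1, a lymphatic marker. Efnb2, an arterial ephrin that other embryonic cells also use, had them in 42 of the 52 cells, at 194, 96.9, 106, 149 and 385 CPM against 28.3, 126.1, 83.2, 92.3 and 359.6 (0.66 ± 0.44, adjusted p = 0.623).

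Basement membrane genes, which encode the matrix that vessels rest on, had a median log2 fold change of 1.46. All 12 were tested, 10 were higher, 7 in all 5 plates, and 0 passed edgeR's test (8 higher and 1 lower at an unadjusted p under 0.05; 7 higher by DESeq2). Serpinh1, 1 of the 10, and Lamc1, 1 of the 2 lower, changed sign in other settings. Fn1, the fibronectin gene, was at 186, 338, 545, 481 and 2283 CPM against 128, 195, 163, 169.8 and 524 (1.34 ± 0.26, adjusted p = 0.0995). Col4a2, a chain of type IV collagen, was at 35.4, 144, 18.1, 97.3 and 62.6 CPM against 0.566, 11.98, 14.4, 15.4 and 4.23 (3.30 ± 0.82, adjusted p = 0.213). The library labelled 3B77 had the highest Fn1 in both classes, with 77.4% of it from 1 endothelial-like cell. Nid2, a nidogen, went the other way (-1.81 ± 0.69, adjusted p = 0.363).

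Outside the lists, the rule for named genes added Klhl4, Thsd1 and Ets2. Ets2, an ETS factor, was at 130.05, 469, 103, 364 and 203 CPM against 14.8, 59.3, 7.53, 28.9 and 63.95 (log2 fold change 3.06 ± 0.40, adjusted p = 0.0250) and had at least 5 reads in 40 of the 52 cells and in 136 others. Thsd1, a membrane protein with a thrombospondin domain, was at 21.1, 38.7, 30.8, 15.99 and 38.9 CPM against at most 0.777 (5.54 ± 0.73, adjusted p = 0.0250). Klhl4 was at 2.53, 15.9, 30.4, 194 and 36.1 CPM (9.003 ± 1.03, adjusted p = 0.0113), and 1 cell held 92.4% of its reads in the library labelled WT.
The remaining rises, named after their values were seen, were Dcaf12l1, F2r and Kcne3. Kcne3, a potassium channel subunit, had 5269 reads in endothelial-like cells and 0 in others, at least 9449-fold higher against a limit of 3 reads over the other cells, but only 11 cells had at least 5 reads and the library labelled 3B77 had none. F2r, the thrombin receptor, was at 220.1, 201, 298, 267 and 677 CPM against 30.6, 71.6, 55.2, 34.2 and 157 (2.37 ± 0.29, adjusted p = 0.0198). Dcaf12l1 had a log2 fold change of 2.13 ± 0.24 (adjusted p = 0.0113).

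**Figure D4:**
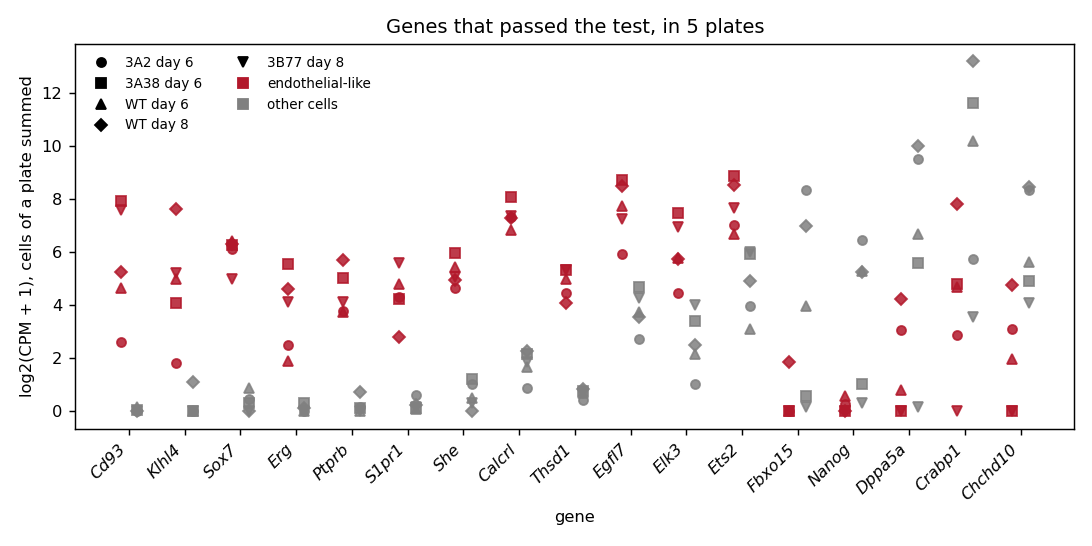
Level of the 12 named genes that rose and the 5 that fell (x axis) as log2(CPM + 1) of summed reads (y axis), in endothelial-like cells (red) and other cells (grey) of 5 plates as labelled (symbols; WT day 8 is the plate of 68 cells). For the first 12 genes each plate's red symbol lies above its grey one, and for the last 5 below it. For Dppa5a, Fbxo15 and Nanog both symbols of the library labelled 3B77 are near 0.

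Genes of the epiblast and of neural cells were lower. All 8 epiblast genes had negative log2 fold changes (median -6.52) and 2 fell (5 by DESeq2), and all 8 neural genes did (median -5.36) and 1 fell (5 by DESeq2). The other cells of these 5 plates included 102 that met the epiblast rule and 50 that met the neural rule, so these falls are against a mixture that differs from plate to plate, and its part in them was not tested. Dppa5a, a pluripotency gene, was at 7.35, 0, 0.734, 17.99 and 0 CPM against 723, 46.7, 102, 1010 and 0.124 (-6.72 ± 0.53, adjusted p = 0.00157). Crabp1, a retinoic acid binding protein of early neural cells, was at 6.43, 26.9, 24.5, 225 and 0 CPM against 51.97, 3120, 1158, 9252 and 10.8 (-5.30 ± 0.56, adjusted p = 0.00975).
Nanog, the pluripotency factor, had 3 reads in endothelial-like cells of these plates and 3651 in others (ratio 0.00442, counting interval 0.000911 to 0.0129, adjusted p = 0.0267), and none of the 52 cells had 5 reads against 211 others. Fbxo15, a target gene of pluripotency factors, had 4 against 11146 reads (adjusted p = 0.0499) and was not called by DESeq2 (adjusted p = 0.0549). In the library labelled 3B77 the other cells had only 0.124 CPM of Dppa5a and of Fbxo15 and 0.249 of Nanog. These values are near the floor, so the 0 of its endothelial-like cells shows no fall there. The naming rule still counted that plate as lower for these 3 genes. Chchd10, a mitochondrial protein, was at 7.58, 0, 2.94, 25.99 and 0 CPM against 323, 29.3, 48.1, 350.4 and 15.8 (-5.07 ± 0.72, adjusted p = 0.0341). Tnfrsf19, a receptor of the TNF family, fell on 4 plates (-7.42 ± 1.04, adjusted p = 0.0499).

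Blood genes were low in the endothelial-like cells, though not past edgeR's test. Of the 8 on the list 0 were called (6 lower, median log2 fold change -7.63; 4 lower at an unadjusted p under 0.05 and 4 by DESeq2). Their summed level was 8.04, 153, 146, 0.666 and 0 CPM in endothelial-like cells and 18.8, 24576, 3501, 759 and 34394 in the others. Gata1 and Klf1, which define red cell precursors, had no reads in the endothelial-like cells against 1372 and 1566 in the others, at least 85.01-fold and 97.03-fold lower against a limit of 3 reads over the group. The globin Hbb-bh1 was lower in all 5 plates (adjusted p = 0.199). Hbb-bh0, a related gene annotated as a pseudogene and not on the list, passed (1 read against 18340), lower on 4 plates and with no reads in 3A2.
Itga2b, Spi1 and Ptprc, which mark early blood and white cells, were found almost only in 3A38 at day 6, at 31.5, 63.99 and 38.3 CPM. There 1 endothelial-like cell had 1190 CPM of Spi1, 1044 of Ptprc and 425 of Nfe2. The same cell had 856 of Gfi1b, 279 of Runx1 and 91.1 of Hbb-bh1. It had 3 of the 8 rule markers and 8 of the 40 other endothelial genes, so the name endothelial-like is uncertain for it. Another cell had 102 of Spi1, 54.5 of Itga2b and 154 of Nfe2, with 6 rule markers and 20 of the other endothelial genes. These are the 2 cells that met the blood rule. Of the 8 haemogenic genes 7 were tested and 0 called by edgeR (1 at an unadjusted p under 0.05 and 1 by DESeq2; median 0.03). Kit, the receptor of blood precursors and of some endothelium, was higher in all 5 plates, at 59.1, 62.5, 34.3, 61.98 and 87.99 CPM against 22.6, 7.78, 7.90, 18.3 and 50.8 (1.81 ± 0.50, adjusted p = 0.251). Runx1, the factor of the endothelial to blood transition, had at least 5 reads in 4 of the 52 cells.

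Mesenchyme genes set the library labelled 3B77 apart. The summed level of the 8 genes was 17.9, 76.4, 66.6, 31.99 and 4456 CPM in the endothelial-like cells of the 5 plates and 6.89, 82.9, 191, 42.5 and 4255 in the other cells. Of the 8, 0 were called by edgeR (7 lower, median -1.89; 2 lower at an unadjusted p under 0.05 and 0 by DESeq2). Col3a1, a fibrillar collagen, was at 17.003, 32.5, 31.1, 0 and 3132 CPM, and in the library labelled 3B77 1 of the 6 cells held 91.4% of it. Meox1, a mesoderm factor, had no reads in the 52 cells.
Mural genes, which mark the cells around vessels, summed to 3.45, 229, 224, 86.6 and 713 CPM against 7.03, 236, 165, 25.8 and 227. In 3A38, WT at day 6 and the library labelled 3B77 most of this was Acta2, of which 1 cell held 98.6% in 3A38 and 99.9% in the library labelled 3B77, while Cspg4 and Myh11 had no reads in the 52 cells. Of the 4 mural, 7 nascent mesoderm, 6 cardiac and 4 visceral endoderm genes tested 0 were called by either tool, with 1 mural gene higher and 2 visceral endoderm genes lower at an unadjusted p under 0.05 by edgeR.
Over the 3 day 6 plates alone, without the doubted libraries, the median log2 fold change of all genes was -0.32 and no gene of these lists was called. The median was 3.82 for the 16 transcription factors, all higher, and 5.62 for the 22 surface genes tested, 21 of them higher. It was 1.11 for the 17 vessel ligands and receptors, 1.64 for 9 arterial, 0.97 for 5 venous and lymphatic and 1.03 for the 12 basement membrane genes. The 8 epiblast genes and 7 neural genes were lower throughout, with medians of -6.43 and -5.19. The median was -5.02 for the 8 blood genes (5 lower), 0.87 for 6 haemogenic, -0.65 for 5 mesenchyme and -0.56 for 4 mural genes.
When the 8 cells that met a rule of another cell type were left out, an alternative added after the data were seen, the library labelled 3B77 fell below 5 cells and 56 genes were called over the 4 remaining plates, 27 of them among the 28 of the whole set.

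**Figure D5:**
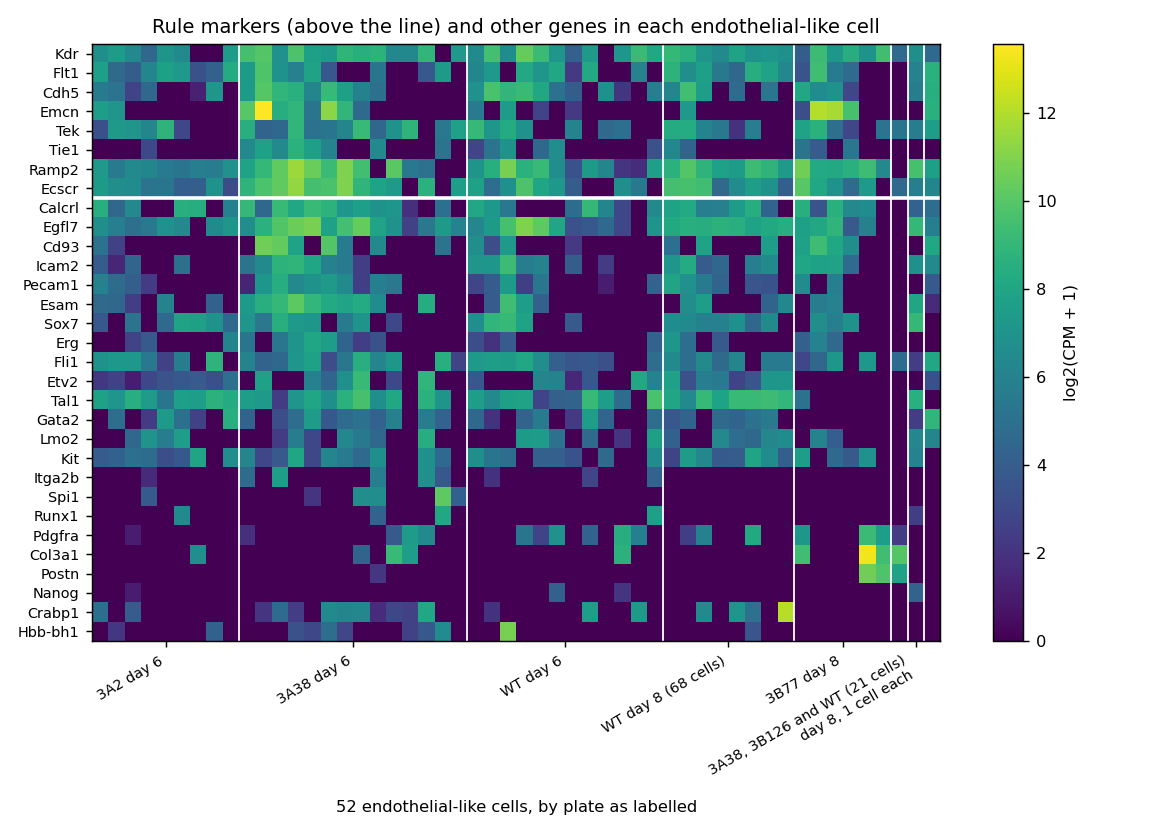
Log2(CPM + 1) (colour) of the 8 rule markers, above the white line, and of 23 other genes in each of the 52 endothelial-like cells (columns, grouped by plate as labelled and ordered by number of markers within it). In the library labelled 3B77 Etv2 has no reads and Tal1 is read in 1 cell, Col3a1 reaches its highest value in 1 of its cells, and Nanog is at or near 0 in most columns.

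Day 8 was compared with day 6 within endothelial-like cells, over 2 day 8 and 3 day 6 plates. Of 10616 genes 0 were called by edgeR (0% in either direction; 1.62% higher and 3.72% lower at an unadjusted p under 0.05, 567 in all, smallest adjusted p 0.621), and DESeq2 called 63. Both day 8 plates are libraries whose labels were in doubt, and without them no day 8 plate had 5 endothelial-like cells. Sox7 had a log2 fold change of -0.81 ± 0.93, Calcrl -0.39 ± 0.75 and Egfl7 0.01 ± 0.81. Of the 16 transcription factors and 23 surface genes 0 passed edgeR's test, with 1 of each lower at an unadjusted p under 0.05 and 0 and 1 called by DESeq2. Col3a1 was higher at day 8 by 5.67 ± 1.87 (adjusted p = 0.907), all of it from the library labelled 3B77, since the one labelled WT had no reads of it. The difference between endothelial-like and other cells was also compared between days, and 0 of 14321 genes were called by edgeR (522 at an unadjusted p under 0.05; DESeq2 was not run on this contrast).

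Endothelial-like cells of the 3AKO clones were compared with those of WT at day 6, 23 cells of 2 plates against 12 cells of 1 plate. The spread came from the 3AKO pair alone (1 residual degree of freedom, shared over all genes), since the other groups had 1 plate each, and WT is assumed to vary like it. The spread of WT itself was not measured, so the calls describe these 3 plates and not the genotypes. Of 12843 genes 0 were called higher (407, or 3.17%, at an unadjusted p under 0.05 in either direction; DESeq2 called 29 higher and 19 lower) and 4 lower in 3AKO (0.0311%), Plagl1, Tdo2, Gpm6b and Gm42484, the last named after its values were seen. All 4 had 0 reads in both 3AKO clones, so they passed the filter on low counts through the other plates. The 3AKO pair shows no spread for them, so no p-value is given for these genes.
Plagl1, an imprinted zinc finger gene, was at 198 CPM in WT and had 0 reads in the 3AKO cells. It was read in 4 of the 12 WT cells, 1 of which held 76.9% of its reads. Among the other cells of these plates it was at 9.96 and 0 CPM in 3AKO and 340.5 in WT, where 2 cells held all of it. At day 8 it was at 2292 CPM in endothelial-like cells of the library labelled 3B77 and at 0 in those of the library of 68 cells labelled WT. Tdo2, an enzyme of tryptophan breakdown, was at 171 CPM in WT, all from 1 cell. Gpm6b, a membrane glycoprotein, was at 109 CPM, 84.98% of it from 1 cell, and Gm42484 at 108, 76.5% from 1 cell.
Without the doubted libraries 14 genes were called, these 4 among them. Of the 16 transcription factors, 24 surface genes and 8 rule markers 0 were called by edgeR, with 0, 3 and 1 at an unadjusted p under 0.05 and 0, 0 and 1 by DESeq2. Batch cannot be told apart from genotype in this comparison.

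Over the 8 genes of DNA methylation 0 were called between endothelial-like and other cells by edgeR (2 lower at an unadjusted p under 0.05 and 1 by DESeq2; median log2 fold change 0.20, and -0.15 over the day 6 plates alone). Tet1, which oxidises methylated cytosine, was lower in all 5 plates, at 68.01, 21.3, 39.4, 75.97 and 4.51 CPM against 330.5, 101, 86.3, 121 and 116 (-2.07 ± 0.57, adjusted p = 0.255). Dnmt3l, a cofactor of the de novo methyltransferases, had no reads in the endothelial-like cells against 441 in the others, at least 27.3-fold lower.

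The median share of reads from mitochondrial genes was higher in endothelial-like than in other cells on all 5 plates, by 2.08 percentage points (SD 1.86, n = 5, range 0.0410 to 4.85; exact sign-flip permutation test, two-sided, p = 0.0625, the smallest possible). With means in place of medians it was higher on 4 of 5 plates (lowest -0.223), and with 4 or more markers, which left out the library labelled 3B77, on 3 of 4 (lowest -0.232). Over the 3 day 6 plates alone it was higher by 1.502 points (exact permutation p = 0.25, the smallest possible). The median number of genes in cells thinned to 50000 reads differed by 146 (SD 524, n = 5, higher on 3 of 5 plates; exact permutation p = 0.5625), by -23.5 without the library labelled 3B77 and by -206 over the day 6 plates alone. Of 14 cell cycle genes 0 passed edgeR or DESeq2 (median log2 fold change -0.31, against -0.40 over all genes; 0 at an unadjusted p under 0.05; -0.67 and 2 lower over the day 6 plates alone, against -0.32). Mki67, present in dividing cells, was at 278, 119.9, 82.5, 392 and 1297 CPM against 142, 226, 133, 317 and 323 (0.33 ± 0.39, adjusted p = 0.809).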

How the data were processed

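Smart-seq2 libraries of single EB cells were sequenced as single-end 75-base reads. The deposited table holds raw read counts per gene and cell; per the labels and the study's methods the authors trimmed reads with Trim Galore (0.5.0), aligned them with STAR (2.7.1a) to mm10 and counted them per gene with featureCounts (1.6.1). Reads are not unique molecules, so deep cells weigh more in sums.

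Endothelial-like cells had at least 5 reads in at least 3 of 8 markers. The members and gene lists were chosen with earlier results of these data known. Raw counts were summed per plate and class (at least 5 cells in each), filtered with filterByExpr and tested with edgeR (4.0.16, TMM, robust quasi-likelihood, plate as a block against other cells); calls needed an adjusted p under 0.05. The fits against other cells and of day 8 against day 6 were also run on simulated counts, which held no plate effects. The fit of 3AKO against WT was not. The outcome is not given here, because counts without plate effects cannot show how the calls depend on plates. CPM values use plain totals and are not per length, so levels are not compared between genes. Shares were compared by exact permutation over plates, cell measures by exact sign flips. A class of another cell type needed at least 5 reads in at least 3 of its 8 markers. Named genes, beside list genes, were those called and changed the same way on every plate: the 12 largest rises and 12 largest falls (5 passed) against other cells, and the 8 largest each way in the other fits; predicted genes were named only where fewer than 3 others passed or, for Gm42484, to complete a count of 4. Alternatives were DESeq2 (1.42.0), no filter, no TMM factors, other thresholds of the rule, thinning to 50000 reads, leaving out cells or plates, and no block. Plates were the replicates, and a block on the plate pairs the classes because both come from the same plate. Summed reads per plate were 1500585 to 4828688 over endothelial-like and 8037220 to 30034383 over other cells in the plates tested. Positions and promoters are from RefSeq GRCm38.p6, the build of the files. Day 8 cells of 3A2 were not analysed here.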

Additional observations from a re-analysis of the deposited data

Results flagged for a closer look

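Among the levels of 17 named genes in endothelial-like cells and 2 cell measures, each over 5 plates, 2 had a plate far from the others by Dixon's test, about as many as chance gives (1 in 20 sets). Sox7 was lowest in the library labelled 3B77, at 5.00 on the log2(CPM + 1) scale with the next plate at 6.12. Fbxo15 was highest in the library of 68 cells labelled WT, at 1.87 on that scale, from 4 reads of 1 cell, with the other 4 plates at 0.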

How the results depend on the processing

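The count of genes that differed between endothelial-like and other cells was 28. Of these 6 were rule markers, whose rise was fixed by the choice of cells. Rule markers could be called in the alternatives too. The count was 678 with DESeq2, 72 without a filter and 135 after thinning each cell to 50000 reads. With 4 or more markers it was 67, which also left out the library labelled 3B77, with 4 such cells. It was 5 with plates of at least 10 endothelial-like cells. Without the library labelled 3B77 day 8 and both labelled WT day 8 it was 1, the marker Emcn. Without cells of another class it was 56 (chosen after seeing the data), and the library labelled 3B77 was lost here too. Leaving out 1 plate gave 2 to 53, the highest without the library labelled 3B77. Without the plate as a block it was 23, 13 of them shared with the paired fit. Day 8 against day 6 gave 63 genes with DESeq2, 85 without a filter and 0 to 8 without 1 plate (8 without the library of 68 cells labelled WT). 3AKO against WT gave 48 with DESeq2, 1 without TMM factors, 19 with 4 or more markers (again without that library), 14 without the 3 doubted libraries, and 11 and 12 without 1 plate (12 without the library labelled 3B77); leaving out a day 6 plate left no test, and day 8 against day 6 had no fit without the doubted libraries. The number of genes at 50000 reads reversed to -55.9 with 4 or more markers (without that library), to -161 with plates of at least 10 cells and to -206 without the 3 doubted libraries (chosen after seeing the data), and ranged from -23.5 (without the library labelled 3B77) to 282 without 1 plate; the cause was not tested. The share at day 6 and the mean mitochondrial difference kept their direction in all alternatives run, the latter not on every plate, and neither test could reach 0.05. The 17 genes chosen by the naming rule kept their direction in the alternatives that tested them. Of list genes named in the text, Klf2, Tmem100, Lamc1, Serpinh1, Vegfa, Angpt1, Angpt2, Unc5b, Dll4, Runx1, Spi1, Itga2b, Ptprc, Nfe2, Col3a1, Acta2, Dnmt3b and Mki67 changed sign in at least 1. Depth limits single genes: with 6 to 14 endothelial-like cells on the plates tested, a few cells can set a plate's value.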
